A study of Mus musculus with 36 samples.

Results

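Pcna, Mcm5, Uhrf1 and Rrm2, genes that mammalian cells use when they copy their DNA, were followed after an oncogene was meant to be switched off. They were taken by gene symbol from the array annotation, which gave 4 of the 9930 genes with a symbol and 6 of the 20355 probes. Pcna and Rrm2 each had 2 probes, and Mcm5 and Uhrf1 each had 1. The genes were picked with results of these same comparisons known, so their values are given below as a description and no test is used to support them. Total RNA of NIH3T3, an established line of mouse embryo fibroblasts, was measured on 36 cDNA arrays with 2 dyes each. Per the labels all cells carried a transfected Erbb2, a receptor tyrosine kinase oncogene, under tet-off control, in which tetracycline turns the transgene down. Untreated cells made up 1 group, and tetracycline for 1, 2, 4, 12 and 24 h and for 3, 5 and 7 days made up the other 8, with 4 arrays in each of the 9. The other channel of each array held untreated Erbb2 cells. The labels do not say whether the line is 1 clone or whether replicates are separate cultures, so the spread between arrays may be technical.

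In a dividing cell the MCM complex is loaded onto replication origins before S phase and then unwinds the DNA as the core of the replicative helicase. Mcm5 encodes one of its subunits. Pcna is the sliding clamp that holds the DNA polymerases on the template and recruits ligase, nuclease and chromatin factors to the fork. Uhrf1 reads hemimethylated DNA behind the fork and recruits Dnmt1, which copies the methylation pattern to the new strand. Rrm2 is the small subunit of ribonucleotide reductase, the enzyme that supplies the deoxynucleotides. All are transcribed towards the start of S phase under E2F transcription factors, and their transcripts are commonly read as marks of proliferating cells.

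The sequences just upstream of the annotated starts are shown because genes of this kind are known targets of E2F. They come from RefSeq on GRCm38.p6 and are written 5′ to 3′ on the strand of the gene. Capitals mark matches, on either strand, to an E2F word (TTTCGCGC, TTTGGCGC, TTTCCCGC or TTTGCCGC), to CCAAT or to the cyclic AMP response element TGACGTCA. Pcna lies at chr2:132249286-132253180 on the minus strand, and its upstream run is chr2:132253181-132253430. Mcm5 lies at chr8:75109468-75128439 on the plus strand, and its run, chr8:75109259-75109467, stops where the annotated gene begins. Uhrf1 lies at chr17:56303337-56323486 on the plus strand, and the run before its first start is chr17:56303087-56303336. Before its second start only a window of 30 bases cut round an E2F word is shown, chr17:56304117-56304146. It does not reach that start, and the CCAAT matches of that start lie outside it. Rrm2 lies at chr12:24708254-24714146 on the plus strand, with the run chr12:24708004-24708253.
Pcna: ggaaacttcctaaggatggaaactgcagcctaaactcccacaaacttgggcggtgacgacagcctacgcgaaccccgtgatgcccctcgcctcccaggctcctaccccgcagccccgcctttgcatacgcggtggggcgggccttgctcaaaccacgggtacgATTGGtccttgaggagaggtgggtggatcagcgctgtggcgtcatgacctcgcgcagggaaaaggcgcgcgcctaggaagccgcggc
Mcm5: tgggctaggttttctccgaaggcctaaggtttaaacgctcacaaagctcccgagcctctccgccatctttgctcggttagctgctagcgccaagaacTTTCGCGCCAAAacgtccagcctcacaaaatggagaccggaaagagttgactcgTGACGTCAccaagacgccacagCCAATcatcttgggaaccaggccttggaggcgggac
Uhrf1, first start: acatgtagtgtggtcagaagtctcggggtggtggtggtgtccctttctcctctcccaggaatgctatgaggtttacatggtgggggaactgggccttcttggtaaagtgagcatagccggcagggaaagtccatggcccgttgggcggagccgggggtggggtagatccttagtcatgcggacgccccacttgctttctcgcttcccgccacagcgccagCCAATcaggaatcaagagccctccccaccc
Uhrf1, second start: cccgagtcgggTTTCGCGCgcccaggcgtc
Rrm2: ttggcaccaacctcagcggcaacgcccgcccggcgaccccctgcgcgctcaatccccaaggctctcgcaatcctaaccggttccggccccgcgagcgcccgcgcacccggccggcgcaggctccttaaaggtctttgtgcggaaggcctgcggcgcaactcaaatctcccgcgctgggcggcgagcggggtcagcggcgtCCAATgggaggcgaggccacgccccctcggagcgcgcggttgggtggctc

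Within 250 bases before a start, 2 overlapping E2F words, 1 on each strand, lay upstream of Mcm5, 153 to 146 and 149 to 142 bases before the start that the promoter table uses. Another E2F word lay 185 to 178 bases before the second Uhrf1 start. No E2F word of these 4 was found in the windows of Pcna, Rrm2 or the first Uhrf1 start, which says only that these letters are not there. CCAAT was found before every one of these starts, 87 to 83 bases before that of Pcna (on the opposite strand) and 50 to 46 bases before that of Rrm2. TGACGTCA was found for Mcm5. Over all 32851 promoters given there, 1.86% held an E2F word, 33.8% held CCAAT and 1.55% held TGACGTCA. Of the 82 promoters of 66 other replication genes, 22% held an E2F word and 47.6% held CCAAT. A match is a description of the letters and not a measured binding site.

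Each deposited value is the log2 of 1 channel over the other, so it gives differences from the reference and not levels. Replicates 1 and 2 of each group carried the named cells in Cy5, and replicates 3 and 4 in Cy3. Per the sources used here neither the numerator nor the normalization is given, and the protocol text speaks of organs and of a reference pool of control animals, against the named source of channel 2. As control the text on the design names 2 untreated lines that differ, so the untreated arrays may hold another line in one channel. Cy5 over Cy3 was assumed and the Cy3 arrays were multiplied by -1, so that above 0 the named cells hold more of the RNA than the reference. The direction is not settled, and with the opposite numerator every sign below turns. Medians of all arrays were set to 0. Between untreated replicates 1 and 2 the deposited values differed by a constant 0.771 (SD 0.000507 over 19772 values), and the next highest correlation of any array pair was 0.449. They were counted as 1 array, which leaves 3 untreated arrays and 35 in all. Values per array numbered 17508 to 20010, and precision is limited by how many arrays there are. The arrays of 3 to 7 days spread more, with interquartile ranges of 0.697 to 1.419 against 0.357 to 0.504 at 1 to 24 h and 0.492 to 0.700 in untreated cells, and the part of this spread in the late results was not tested. Erbb2 has no probe of that symbol in the annotation used, so its shutdown was not analysed here.

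Pcna read high in the first hours and low at 5 days at both of its probes. At 3 days the mean was low at both, with 1 array of probe 10276 above 0. On the centred log2 scale probe 4818 read 0.03, 0.37 and 0.41 on the untreated arrays (replicates 1, 3 and 4). At 1 h it read 1.07, 1.31, 0.80 and 0.99 (replicates 1 to 4, here and below). At 2 h it read 1.80, 1.52, 1.35 and 1.74. All of these treated arrays lay above all untreated arrays, and 2 h had the highest mean of the course, 1.60 ± 0.20 (SD, n = 4) against 0.27 ± 0.21 (SD, n = 3). At 4 h the values were 1.87, 1.43, 1.02 and 1.27, again above all untreated arrays. At 12 h they were 0.80, 0.77, 0.99 and 0.19, and at 24 h 0.31, 0.19, 0.37 and 0.30, both overlapping the untreated range. By 24 h the Pcna ratio had thus come back to that of untreated cells, with means of 0.29 ± 0.07 (SD, n = 4) and 0.27. At 3 days the probe read -0.50, -0.79, -0.91 and -0.15, and at 5 days -0.55, -0.71, -1.17 and -0.87. All 8 of these arrays lay below 0 and below all untreated arrays. At 7 days the values 0.24, 0.26, -0.43 and -0.08 straddled 0 and overlapped the untreated arrays.

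The other Pcna probe, 10276, is a separate measurement of the same transcript on the same arrays. It read -0.26, 0.42 and 0.31 in untreated cells. At 1 h it read 0.94, 0.79, 0.95 and 1.10, and at 2 h 1.57, 1.45, 1.25 and 1.42. The ranges of 1 and 2 h did not overlap each other, and both lay above the untreated range. At 4 h the probe read 1.03, 0.97, 0.49 and 0.58, at 12 h 1.07, 0.73, 0.41 and 0.12, and at 24 h 0.23, -0.14, 0.05 and -0.12. Of these, 4 h was wholly above the untreated arrays and 12 and 24 h overlapped them. At 3 days the values were -0.25, 0.09, -1.26 and -0.92, at 5 days -0.82, -1.0, -0.57 and -0.89, and at 7 days 0.47, 0.02, -0.29 and 0.46. The 5-day arrays alone lay wholly below the untreated range at this probe. At 3 days the probe averaged -0.08 on its Cy5 arrays and -1.09 on its turned Cy3 arrays. Its row lies where the 5- and 7-day columns are displaced by 3 rows, and its values there were moved back. With the rows as deposited, the fitted difference at 5 days was -0.03 in place of -1.01, and at 7 days -0.74 in place of -0.03. Probe 4818 lies before these rows, so its values were not moved, except on 5d replicate 1. That array is displaced by 1 row along its whole length.

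**Figure D1:**
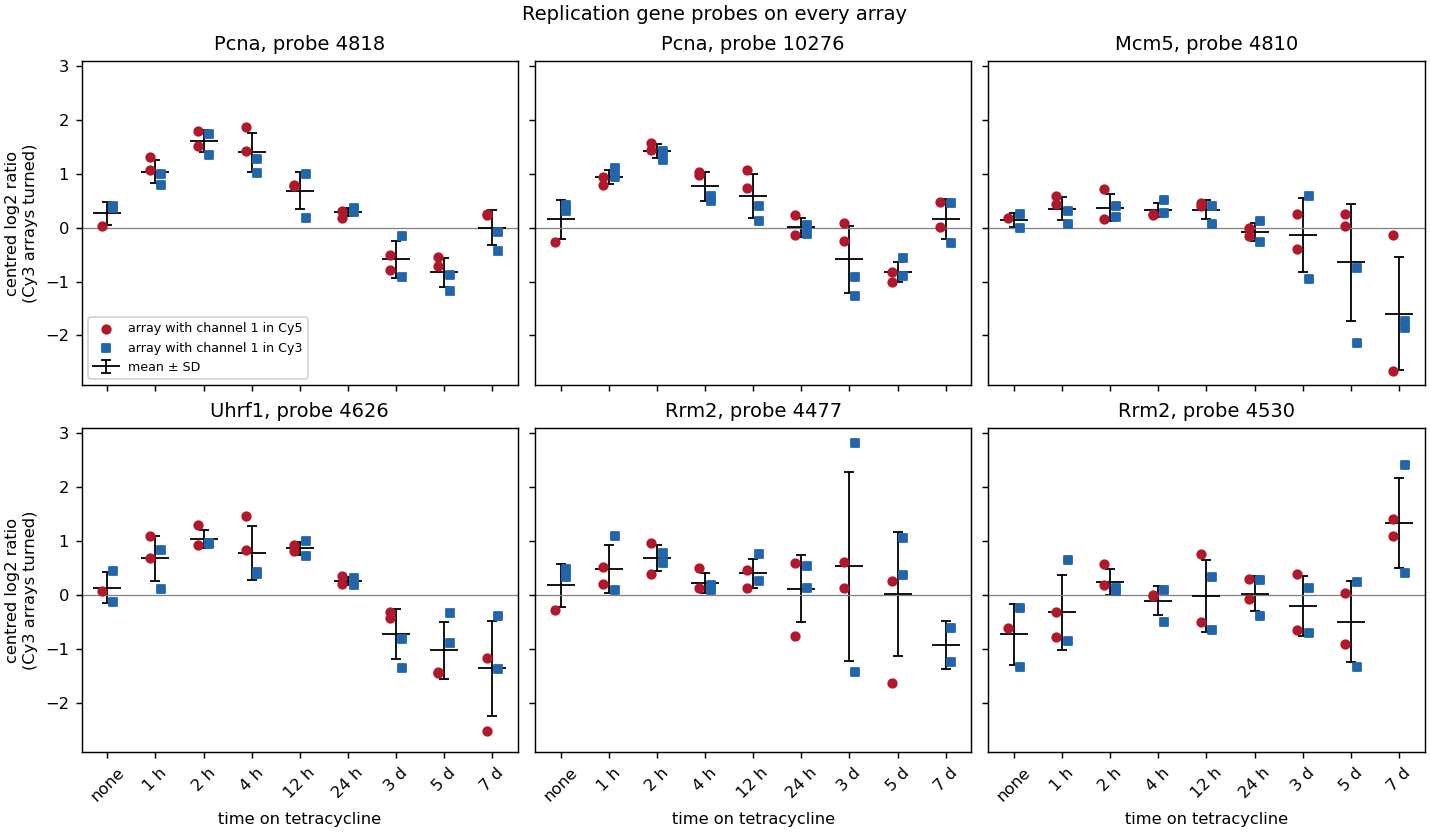
Centred log2 ratios (Cy3 arrays turned) of the 6 probes on each of the 35 distinct arrays, by time on tetracycline, with group mean and SD; red circles are arrays with the named cells in Cy5 and blue squares arrays with them in Cy3. Both Pcna probes and Uhrf1 were positive on all 16 arrays of 1 to 12 h and negative on all 4 of 5 days, while the 2 Rrm2 probes went different ways at 7 days.

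Uhrf1, the reader of hemimethylated DNA, followed Pcna early and stayed low late. Its probe, 4626, read 0.08, -0.13 and 0.44 in untreated cells. At 1 h it read 1.10, 0.68, 0.84 and 0.11, and at 2 h 0.93, 1.29, 0.96 and 0.95. The 2 h arrays lay above all untreated arrays and the 1 h arrays overlapped them. At 4 h the values were 0.83, 1.46, 0.38 and 0.43, at 12 h 0.92, 0.81, 1.00 and 0.72, and at 24 h 0.35, 0.21, 0.31 and 0.19. All 20 arrays of 1 to 24 h were positive, and those of 12 h were wholly above the untreated range. At 3 days the probe read -0.43, -0.32, -1.36 and -0.81, at 5 days -1.45, -1.44, -0.33 and -0.90, and at 7 days -1.18, -2.52, -1.37 and -0.39. All 12 late arrays were negative and below all untreated arrays, and the means of 3, 5 and 7 days were -0.73, -1.03 and -1.37, with ranges that overlapped. In the order of group means this was the only step between neighbours whose ranges did not overlap: untreated, at 0.13 ± 0.28 (SD, n = 3), above 3 days, at -0.73 ± 0.47 (SD, n = 4).

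Mcm5, the helicase subunit, moved little before 3 days. Its probe, 4810, read 0.18, 0.00 and 0.26 in untreated cells, 0.44, 0.59, 0.07 and 0.32 at 1 h, and 0.72, 0.17, 0.40 and 0.20 at 2 h. It read 0.24, 0.26, 0.52 and 0.28 at 4 h and 0.41, 0.46, 0.40 and 0.07 at 12 h. All 16 of these treated arrays were positive, but every one of these times overlapped the untreated range. At 24 h the values were -0.01, -0.16, -0.26 and 0.13, at 3 days -0.39, 0.25, -0.96 and 0.58, and at 5 days 0.04, 0.26, -0.74 and -2.14. These also overlapped the untreated arrays, and the SD rose from 0.17 at 24 h to 1.08 at 5 days. At 7 days the probe read -2.65, -0.14, -1.73 and -1.86, all below the untreated arrays, with replicate 2 close to 0 and the other 3 far from it. No 2 neighbours in the order of its group means had ranges apart from each other.

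Rrm2, the reductase subunit, was measured by 2 probes whose values differed in course. Probe 4477 read -0.28, 0.48 and 0.33 in untreated cells, 0.51, 0.21, 0.09 and 1.09 at 1 h, and 0.96, 0.39, 0.60 and 0.78 at 2 h. At 4 h it read 0.49, 0.12, 0.10 and 0.18, at 12 h 0.46, 0.13, 0.75 and 0.25, and at 24 h 0.59, -0.77, 0.13 and 0.53. It was positive on all 16 arrays of 1 to 12 h, yet each of these times overlapped the untreated range. At 3 days the values ran from -1.44 (replicate 3) to 2.82 (replicate 4), with 0.61 and 0.13 between them, and at 5 days they were -1.64, 0.26, 0.37 and 1.06. At 7 days only replicates 3 and 4 had a value, -0.62 and -1.24, both below the untreated arrays, and no difference was fitted there.

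Probe 4530 of Rrm2 read -0.62, -0.24 and -1.34 in untreated cells, the lowest mean of its 9 groups, -0.73 ± 0.56 (SD, n = 3). It read -0.79, -0.31, -0.85 and 0.65 at 1 h, 0.18, 0.58, 0.12 and 0.07 at 2 h, and -0.02, -0.00, 0.09 and -0.50 at 4 h. Only the 2 h arrays among these lay above all untreated arrays. At 12 h the values were -0.51, 0.75, 0.34 and -0.65, at 24 h 0.30, -0.07, 0.27 and -0.40, and at 3 days 0.39, -0.65, 0.13 and -0.70. At 5 days they were -0.91, 0.03, -1.33 and 0.23, and at 7 days 1.10, 1.40, 0.40 and 2.42. The 7-day arrays were all positive and above all untreated arrays, where the other probe's 2 values were negative. The probes' ratios had a Spearman rho of 0.14 over the 33 arrays that measured both, against 0.90 over 35 arrays for the Pcna probes, so no single course is given for Rrm2.

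Differences from the untreated arrays were fitted with limma, with a mean for each group and a common dye effect per probe over all 35 arrays. The 8 comparisons share the untreated arrays. For Pcna probe 4818 (SE 0.21) the log2 difference was 0.74 at 1 h, 1.30 at 2 h, 1.10 at 4 h, 0.39 at 12 h and -0.01 at 24 h. It was -0.89 at 3 days, -1.13 at 5 days and -0.30 at 7 days. The clamp gene thus read above untreated cells in the first hours, level with them at 24 h and below them at 3 and 5 days. Probe 10276 (SE 0.25) gave 0.75, 1.23, 0.58, 0.39 and -0.19 at 1, 2, 4, 12 and 24 h and -0.78, -1.01 and -0.03 at 3, 5 and 7 days. Its early values depended on untreated replicate 1, and without that array they were 0.44, 0.92, 0.27, 0.08 and -0.50 from 1 to 24 h. At 12 h probe 4818 was then at 0.19. Uhrf1 (SE 0.35) gave 0.55, 0.90, 0.64, 0.73 and 0.13 from 1 to 24 h and -0.86, -1.17 and -1.50 from 3 to 7 days. On the average of both dyes Pcna was back near untreated cells at 7 days, and Uhrf1 was not. By dye, Pcna probe 4818 averaged 0.25 on the Cy5 arrays and -0.25 on the turned Cy3 arrays there, against 0.03 and 0.39 untreated. Probe 10276 averaged 0.25 and 0.08, against -0.26 and 0.36. At both probes the Cy5 mean thus lay above that of untreated cells and the Cy3 mean below it. Mcm5 (SE 0.43) stayed between 0.13 and 0.17 from 1 to 12 h and then gave -0.27, -0.33, -0.84 and -1.79 from 24 h to 7 days. Rrm2 probe 4477 (SE 0.60) gave 0.36, 0.57, 0.11, 0.28 and 0.00 from 1 to 24 h, 0.42 at 3 days and -0.10 at 5 days. Probe 4530 (SE 0.44) was positive at all 8 times, from 0.22 at 5 days to 2.05 at 7 days, against its low untreated mean.

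**Figure D2:**
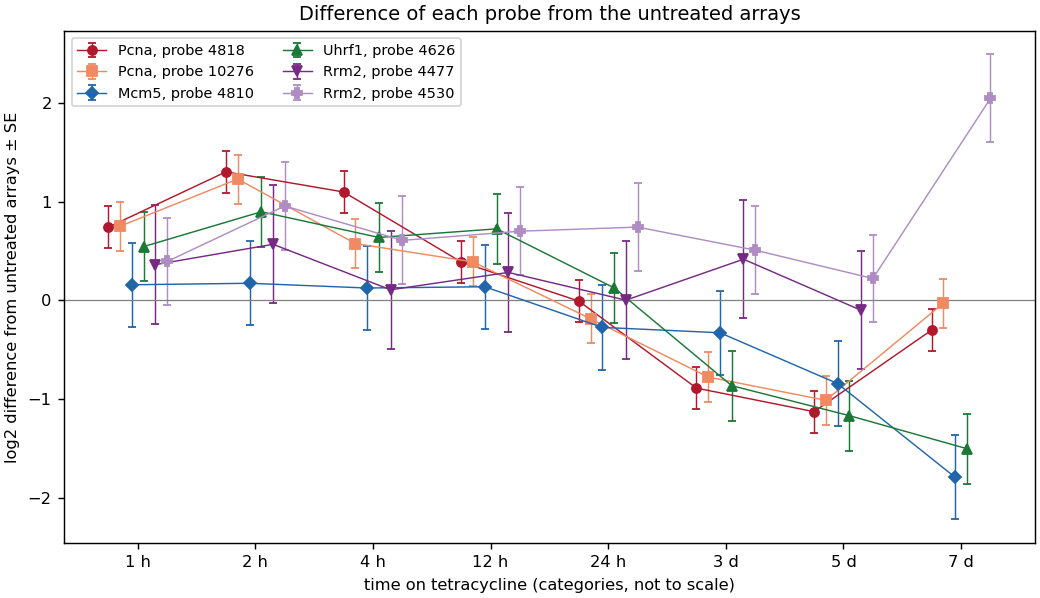
Fitted log2 difference of each probe from the untreated arrays (y axis, with its SE) at the 8 times on tetracycline (x axis, categories not to scale). The Pcna probes peaked at 1.30 and 1.23 at 2 h and reached -1.13 and -1.01 at 5 days, Mcm5 and Uhrf1 were at -1.79 and -1.50 at 7 days, and Rrm2 probe 4530 was at 2.05 there.

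Because the genes were picked from these comparisons, the calls are listed only beside the share of all probes called the same way (limma, Benjamini-Hochberg adjusted p under 0.05), and nothing is read from them. At 2 h both Pcna probes were called higher, as were 0.405% of 18505 probes. At 4 h Pcna probe 4818 was called higher, as were 0.129% of probes. At 3 days the same probe was called lower, as were 0.369%, and at 5 days both Pcna probes were, as were 0.969%. At 7 days Mcm5 and Uhrf1 were called lower, as were 0.486% of probes, and Rrm2 probe 4530 higher, as were 0.585%. At 1, 12 and 24 h none of the 6 probes was called, against 0.197%, 0.0165% and 0.0276% of all probes in either direction. Probes whose treated arrays all lay above all untreated arrays numbered 4 of the 6 at 2 h, all but Mcm5 and Rrm2 probe 4477, where 6.71% of all probes did so. They numbered 2 of 6 at 1 h and at 4 h, the Pcna probes, where 3.85% and 4.09% of all probes did. Uhrf1 did so at 12 h, where 3.13% did, and Rrm2 probe 4530 at 7 days, where 3.78% did. Wholly below lay Pcna probe 4818 and Uhrf1 at 3 days (2.36% of all probes), and both Pcna probes and Uhrf1 at 5 days (4.41%). Mcm5 and Uhrf1 lay wholly below at 7 days (3.87%). The 2 values of Rrm2 probe 4477 there did too, but that share takes only probes with at least 3 values per group.

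The dye swaps measured each group with the dyes exchanged, and the turning can be followed in them. At 2 h Pcna probe 4818 averaged 1.66 on the Cy5 arrays and -1.55 on the Cy3 arrays with the sign as deposited, and probe 10276 averaged 1.51 and -1.33. Uhrf1 averaged 1.11 and -0.96, Mcm5 0.44 and -0.30, and Rrm2 probe 4477 0.67 and -0.69. The orientations had opposite deposited signs for all 6 probes at 2 h, Rrm2 probe 4530 included (0.38 and -0.09). At 5 days Pcna averaged -0.63 and 1.02 at probe 4818 and -0.91 and 0.73 at probe 10276, and Uhrf1 -1.44 and 0.62, again opposite. Mcm5 at 5 days had the same sign in both, 0.15 and 1.44, and so had Rrm2 probe 4477 there, -0.69 and -0.72. For those 2 the turned arrays disagree in sign between the dyes. Without turning, the fitted difference of Pcna probe 4818 at 5 days was 0.30, that of probe 10276 was 0.14 and that of Mcm5 at 7 days was 0.26, each with the opposite sign to the value above.

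**Figure D3:**
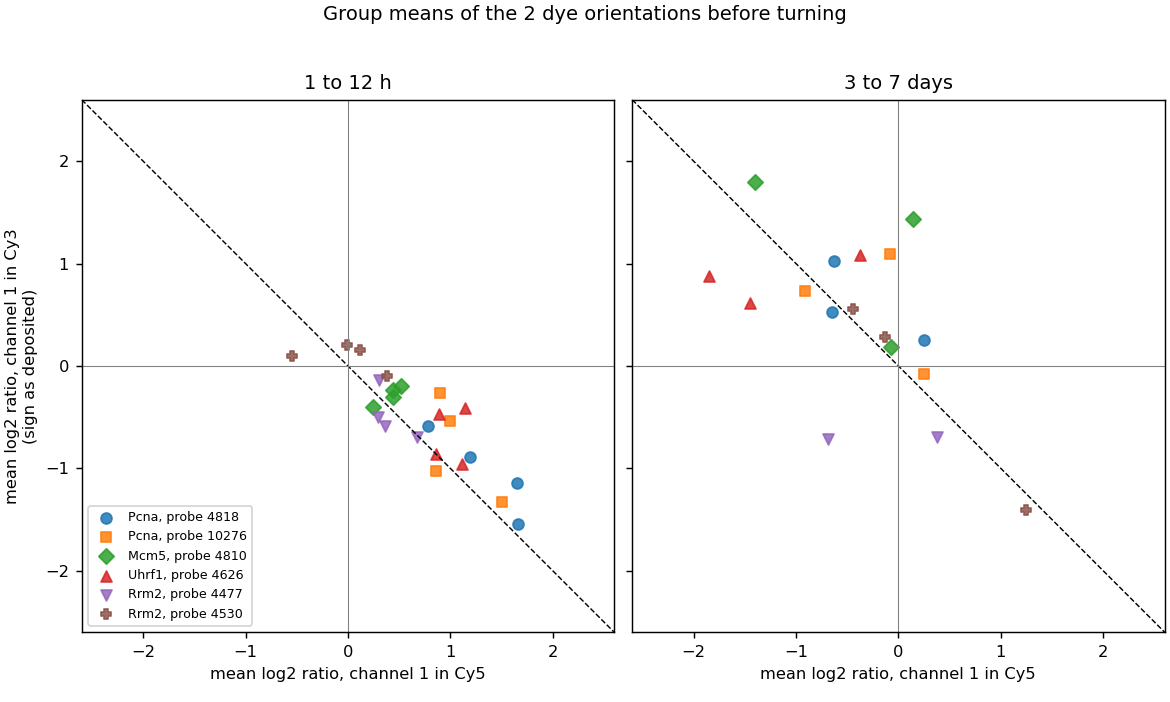
Group means of each probe on the 2 Cy5 arrays (x axis, log2 ratio) and on the 2 Cy3 arrays with the sign as deposited (y axis, log2 ratio), at 1 to 12 h (left) and at 3 to 7 days (right); the dashed line is where the dye orientations mirror each other. Pcna at 2 h, at 1.66 and -1.55, lies close to the line, and Mcm5 at 5 days, at 0.15 and 1.44, lies off it.

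The genes' ratios were set against each other over the arrays after the dye effect was taken off. These values describe arrays that share a reference channel and the times, and have no test. Pcna and Uhrf1 had a Spearman rho of 0.83 over 35 arrays, 0.63 over the 23 arrays up to 24 h and 0.17 over the 12 of 3 to 7 days. Pcna and Mcm5 had 0.59, 0.46 and -0.31, and Mcm5 and Uhrf1 had 0.57, 0.22 and -0.11. Within the late arrays alone these 3 genes therefore showed no common order. Rrm2, as the mean of its 2 probes, had 0.23 with Pcna, 0.06 with Mcm5 and -0.03 with Uhrf1 over 35 arrays, and 0.65 with Pcna over the 12 late arrays. On 7d replicates 1 and 2 that mean is probe 4530 alone, since the other probe has no value there. Between the 2 probes rho was -0.10 over the 10 late arrays with both, so these Rrm2 values describe neither probe.

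By the same measure the genes most like each of the 4 were drawn from 8234 genes with values on at least 33 arrays. The 5 most like Pcna were Hspd1, a mitochondrial chaperonin (rho 0.92), Psat1, an enzyme of serine synthesis (0.88), Tuba1b, an alpha-tubulin (0.88), Esd, an esterase (0.88), and Slc25a5, a mitochondrial ADP/ATP carrier (0.88). Uhrf1 stood at rank 29 for Pcna, Mcm5 at rank 207 and Rrm2 at rank 1428. None of these 5 is a gene of DNA replication. The 5 most like Uhrf1 were Dbi, an acyl-CoA binding protein (0.87), Cox5b, a subunit of cytochrome c oxidase (0.87), Rplp0, a ribosomal stalk protein (0.85), Kpna2, an importin (0.85), and Ctsl, a lysosomal protease (0.84), with Pcna at rank 10. The 5 most like Mcm5 were Hsd17b12 (0.69), the glycolytic enzyme Aldoa (0.69), Psat1 (0.67), the chaperonin subunit Tcp1 (0.66) and Sema5a (0.66). For the mean of the Rrm2 probes, which differed in course, they were Trpm2 (0.60), Bola2 (0.59), Lrrc8a (0.55), Frat2 (0.54) and Kbtbd4 (0.54). These are lower values than for the others. The 99th percentile over the genes compared was 0.73 for Pcna, 0.70 for Uhrf1, 0.52 for Mcm5 and 0.41 for Rrm2.

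The other genes of DNA replication and its G1/S control were tested too. Their list was chosen with earlier results of these data known, so the p-values below are not independent support. Of the 80 genes listed 59 had a probe. At 1, 2 and 4 h their gene means lay above untreated cells more often than those of all genes. At 2 h 42 of 57 tested were positive (73.7%, against 54.9% of all 9296 genes), with a median difference of 0.23 against 0.04. At 1 h 38 of 56 were positive (67.9% against 52.4%, median 0.17 against 0.02), and at 4 h 39 of 57 (68.4% against 53.4%, median 0.15 against 0.02). At 12 h 33 of 56 were positive (58.9% against 50.7%) and at 24 h 29 of 57 (50.9% against 50.8%). At 3 days 20 of 51 were positive (39.2% against 50.4%, median -0.19), at 5 days 21 of 54 (38.9% against 52.8%, median -0.07) and at 7 days 25 of 54 (46.3% against 51.6%, median -0.13). These counts describe the list and are not a test of it. Of single genes limma called none at 1, 2, 4, 12 or 24 h or at 3 or 7 days after Benjamini-Hochberg adjustment over all genes. The genes called made up 0.239%, 0.506%, 0.246%, 0.0218% and 0.0219% of all genes from 1 to 24 h, 0.500% at 3 days and 1.03% at 7 days. At an unadjusted p under 0.05 there were 4 at 1 h, 6 at 2 h, 1 at 4 h, 2 at 12 h, 1 at 24 h, 8 at 3 days, 8 at 5 days and 6 at 7 days. Of all genes 5.08%, 5.95%, 4.24%, 4.31% and 4.48% passed this way at 1, 2, 4, 12 and 24 h, and 12.1%, 10.8% and 10.9% at 3, 5 and 7 days. The 6 at 2 h, all positive, were Mcm4, the polymerase gene Pole, the ligase Lig1, the histone chaperone Nasp, Cdk4 and the E2F partner Tfdp1. They were named after their values were seen.

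At 5 days 2 of the 54 genes tested were called, where 1.57% of all genes were. Dnmt1, the maintenance methyltransferase that Uhrf1 recruits, read 1.46, 1.40, 1.56 and 1.32 at 5 days, against 0.10, 0.30 and 0.61 in untreated cells. Every 5-day array was above every untreated array, and the share of all probes that did so is not given here. It rose by 1.10 (SE 0.14, adjusted p = 2.97e-05 by limma), at the time when Uhrf1 itself was at -1.17. At 7 days Dnmt1 read 0.60, 0.73, 0.43 and 0.56, a difference of 0.25 that did not pass. Gins1, a subunit of the GINS complex that joins the MCM ring to form the active helicase, read -0.79, -0.64, -0.62 and -0.88 at 5 days, against -0.06, 0.39 and 0.33. It fell by 0.97 (SE 0.16, adjusted p = 0.000758 by limma), with every 5-day array below every untreated array, as for 4.41% of all probes. Both calls ended when only the arrays of 5 days and untreated cells entered the limma fit (adjusted p = 0.329 and 0.428). That fit called 0 of 8956 genes, and the differences of Dnmt1 and Gins1 in it were 1.12 and -0.93. The call of Dnmt1 also ended without centring (adjusted p = 0.0736 by limma) and under quantile normalization (0.0869). Under the latter its difference fell from 1.10 to 0.57. The former leaves the constant between untreated replicates 1 and 2 in their average. Without turning, Dnmt1 was at 0.09 and Gins1 at 0.29, and with the rows as deposited Gins1 was at -0.40, none of them called.

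**Figure D4:**
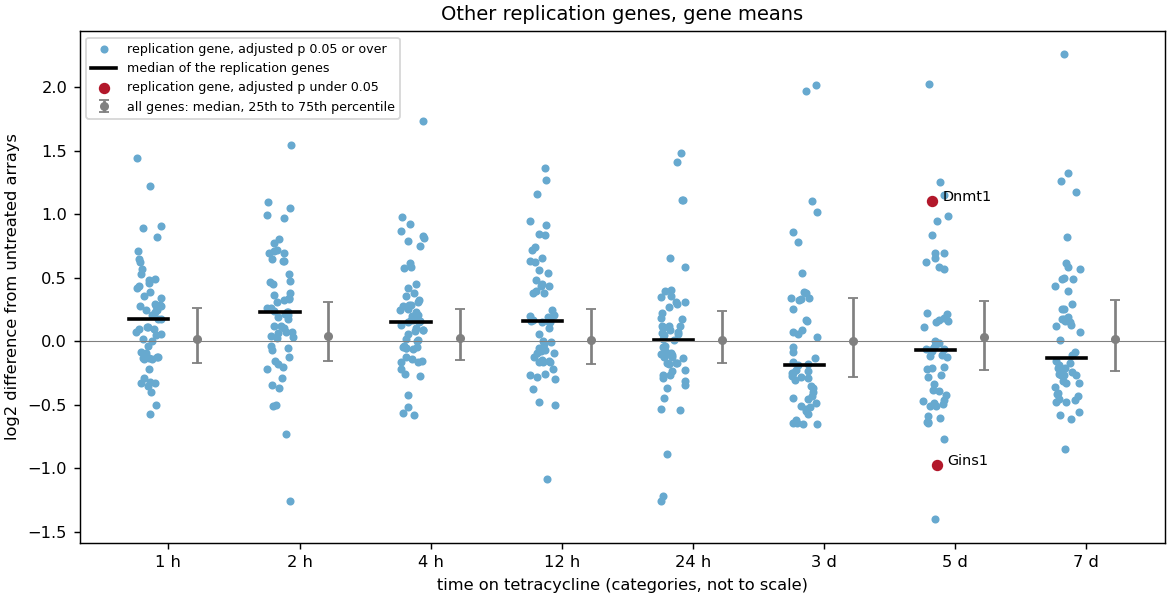
Log2 difference from the untreated arrays (y axis) of the gene mean of each tested replication gene (blue points) at each time (x axis, categories), with the list's median (black bar) and the median and quartiles of all genes (grey). The list's median lay at 0.23 at 2 h and -0.19 at 3 days, and only Dnmt1 (1.10) and Gins1 (-0.97) at 5 days, in red, had an adjusted p under 0.05.

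By role, the other 5 subunits of the MCM helicase were all on the array. All 5 were positive at 1, 2 and 4 h, 4 of 5 at 12 h and none at 5 days, and none was called at any time. Mcm4 was the highest of them at 2 h, with values of 0.98, 1.51, 0.32 and 0.98 against -0.09, -0.15 and 0.05 in untreated cells. Its difference was 0.65 at 1 h, 1.05 at 2 h, 0.86 at 4 h, 0.91 at 12 h and 0.35 at 24 h (SE 0.34; adjusted p = 0.33 at 2 h by limma). At 2 h Mcm2 was at 0.34, Mcm3 at 0.33, Mcm6 at 0.81 and Mcm7 at 0.36, above the 0.17 of Mcm5. Mcm6 started from untreated values of 0.72, -1.31 and -0.88 that differ widely between the Cy5 array and the 2 Cy3 arrays. At 5 days Mcm3 was at -0.77 (SE 0.25, adjusted p = 0.133 by limma) and Mcm7 at -0.47, and Mcm4, Mcm2 and Mcm6 lay between -0.11 and -0.06.

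Of the origin licensing genes 7 of 10 were on the array and none was called. The largest differences at 5 days were 2.03 for Cdt1, which loads the MCM ring (SE 0.95), and -1.41 for its inhibitor Gmnn (SE 0.52). Cdt1 averaged 0.81 there against a low untreated mean of -1.22. The origin subunit Orc5 was at -0.63 and the loader Cdc6 at -0.59. Of the genes that activate the helicase 5 of 9 were on the array. At 5 days Gins3 was at -0.63, Dbf4, the activator of the kinase Cdc7, at -0.50, and Cdc45 at 0.66, none called. Cdc45 averaged -0.29 there against a low untreated mean of -0.92. Gins3 and Dbf4 were also negative at 3 days (-0.48 and -0.51) and at 7 days (-0.56 and -0.61).

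The polymerase and primase genes were represented by 9 of 11, with 6 of 9 positive at 2 h and 1 of 9 at 24 h, and none was called. At 5 days Pole was at 0.84, Pold3 at 0.69, Prim2 at -0.51 and Pola2 at -0.51. Of the clamp loader, RPA and Okazaki fragment genes, the partners of Pcna at the fork, 8 of 13 were on the array. All 8 were positive at 2 h, 7 of 8 at 4 and 12 h, 4 of 8 at 3 days and 5 of 8 at 5 days, and none was called. Lig1, which seals the fragments, was at 1.10 at 2 h (SE 0.42), and Rfc4, a subunit of the loader, was at 1.15 at 5 days (SE 0.70). Fen1, the flap nuclease, was at 0.70 at 5 days, Chtf18 at -0.61 and Rfc1 at -0.47.

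Of the nucleotide supply genes 7 of 10 were on the array. At 2 and 4 h 6 of 7 were positive, at 5 days 2 of 6, and none was called. Rrm1, the large reductase subunit that pairs with Rrm2, stayed between -0.33 and 0.17 at all 8 times (SE 0.21). Gart, of purine synthesis, was at 1.25 at 5 days (SE 0.88), Paics at -0.64 and the thymidine kinase Tk1 at -0.49. Gart averaged -0.04 there against a low untreated mean of -1.26. Of the maintenance methylation and chromatin assembly genes 6 of 8 were on the array. Besides Dnmt1, 3 of 5 were positive at 5 days by at least 0.62, namely the histone chaperones Asf1b (0.98), Chaf1a (0.95) and Asf1a (0.62), none of them called, and Nasp was at -0.27. The G1/S control list had 12 of 14 genes on the array, 7 of 12 positive at 2 h and 3 of 9 at 5 days, with none called. At 5 days Skp2 was at 0.59, the E2F partner Tfdp1 at -0.39, the phosphatase Cdc25a at -0.28 and Cdk2 at -0.21. Skp2 averaged -0.18 there against a low untreated mean of -0.75.

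Without untreated replicate 1, the only untreated Cy5 array, limma called 3 replication genes at 1 h, 3 at 2 h, 1 at 4 h, 2 at 12 h, 1 at 24 h, 3 at 3 days, 5 at 5 days and 4 at 7 days. Pola2, a subunit of the polymerase alpha and primase complex, was among them at all 8 times and lay lower, and Dnmt1 and Gins1 were among those of 5 days. Of all genes this fit called 1.86%, 2.04%, 1.4%, 1.51% and 1.3% from 1 to 24 h and 3.67%, 4.29% and 3.66% at 3, 5 and 7 days, so calls rose over the whole array and not in the list alone. Without 7d replicate 2 limma called 1 gene of the list at 7 days, Dbf4, and 1.02% of all genes.

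Genes of later cell cycle stages and of growth arrest were looked at for comparison. Their lists were also chosen with earlier results of these data known, so the p-values below are not independent support. Of the G2 and mitosis list 10 of 15 were on the array, with medians of 0.41, 0.55, 0.41 and 0.46 from 1 to 12 h, 0.07 at 24 h and -0.09, -0.16 and -0.32 from 3 to 7 days. Ccna2, the S and G2 phase cyclin, read -1.24, -0.67, -1.20 and -1.17 at 5 days, against 0.19, 0.03 and 0.30 in untreated cells. It fell by 1.23 (SE 0.25, adjusted p = 0.00649 by limma), and at 2 h it read 0.83, 0.97, 0.83 and 1.08, a difference of 0.76 that did not pass. Top2a, the topoisomerase that untangles sister chromatids, fell by 1.89 at 7 days (SE 0.46, adjusted p = 0.04 by limma). Its values there were -3.78, -1.15, -0.61 and -1.20 against 0.08, 0.31 and 0.27, and without replicate 1 the difference was -1.21 and the call ended (adjusted p = 0.0536). At 5 days Birc5, the survivin gene, was at 1.71 (SE 0.49, adjusted p = 0.0824 by limma), Aurkb at 0.67, Cdk1 at -0.67 and Ccnb2 at -0.51, none called. Birc5 averaged 0.72 there against a low untreated mean of -0.98. Of the 9 growth arrest genes on the array, Gas1, a membrane protein gene induced in quiescent fibroblasts, fell by 0.98 at 1 h (SE 0.16, adjusted p = 0.00258 by limma). It rose by 0.90 at 3 days, 0.65 at 5 days and 1.01 at 7 days (adjusted p = 0.00815, 0.0378 and 0.00108 by limma). The antiproliferative gene Btg2 rose by 1.23 at 7 days (SE 0.26, adjusted p = 0.0109 by limma). At that time Cdkn1c was at -1.11, Btg1 at 0.53, Ccng1 at -0.41 and Cdkn2c at 0.15, none called.

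When only the arrays of the 2 groups compared entered the fit, limma called 0 of all genes at 1 h and at 3, 5 and 7 days. The calls of Ccna2, Top2a, Gas1 and Btg2 all ended there (adjusted p from 0.329 to 0.974). Those of Top2a, Btg2 and Gas1 also ended without centring, a setting that leaves the constant between untreated replicates 1 and 2 in their average. Under quantile normalization those of Top2a (0.136), Btg2 (0.0565) and Gas1 at 3, 5 and 7 days (0.536, 0.421 and 0.142) ended, and with array weights those of Gas1 at 3 and 5 days (0.136 and 0.0837). Without turning none of these calls was kept. Leaving out untreated replicate 4 ended those of Ccna2 (adjusted p = 0.0523), Top2a (0.158), Btg2 (0.0976) and Gas1 at 5 days (0.0553), and leaving out untreated replicate 3 those of Top2a (0.166) and Gas1 at 5 days (0.0615). That of Gas1 at 5 days also ended without untreated replicate 1 (0.149) and without 5d replicate 1 (0.0691), 2 (0.0929) or 4 (0.0567). With the rows as deposited Ccna2 at 5 days was at -0.58 and Gas1 at 0.01 at 5 days and 0.38 at 7 days, none called, and the call of Top2a at 7 days ended (0.0698). Of the fibroblast markers Col1a1, Col1a2, Col3a1, Vim, Thy1, Pdgfrb, Fn1 and Dcn, all on the array, limma called 4 lower at 1 h, 3 at 2 h and 3 at 4 h and none at 12 or 24 h, where 0.239%, 0.506%, 0.246%, 0.0218% and 0.0219% of all genes were called either way. It called 2 higher at 3 days, 2 higher and 1 lower at 5 days, and 4 higher and 1 lower at 7 days, where 0.500%, 1.57% and 1.03% were. Of 17 markers of epithelium, blood, liver and muscle 15 were on the array and limma called none at any time, with 1 at an unadjusted p under 0.05 at 1 h, 1 at 3 days and 2 at 7 days. Ratios give no level, so the presence of these cells could not be checked, and the part of the marker changes in the replication genes was not tested. In RNA from whole cultures fewer cells in S phase and less of a transcript per cell cannot be told apart.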

How the data were processed

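Total RNA was compared on 36 dual-colour arrays. Deposited was 1 value per probe and array, the log2 of 1 channel over the other, per the labels; the scanner software, background correction, normalization and numerator are not given in the sources used here. Values above 12 (2807) were treated as missing, and array medians were set to 0. Cy3 arrays were multiplied by -1. In the 8 columns of 5 and 7 days the values are displaced against the probe rows by 1 further row from rows 6064, 7303, 7814 and 18384, and by 1 more along all of 5d replicate 1. They were moved back by a hidden Markov model on a ridge prediction from the arrays of 1 h to 3 days, and 352 probes of unsure placement were left out there. Gene names come from the platform annotation: 14030 probes had 1 symbol (13994 matched by Entrez ID to RefSeq), 5 several and 6320 none.

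Differences were fitted with limma 3.58.1 in R 4.3.3, with Benjamini-Hochberg adjustment of the p-values across all probes or gene means tested. At least 3 values per group were needed. The fit and the row placement were tested on simulated data. The 4 genes, the lists and the tests were chosen with earlier results of these data known. Named were all probes of the 4 genes, each listed gene called at any time, up to 4 more per list with the largest difference at the time with most calls, and the 5 genes most like each of the 4. Genes outside this rule that are named with a value were chosen after their values were seen. The series gives no batch label.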

Additional observations from a re-analysis of the deposited data

Results flagged for a closer look

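In 47 groups of 4 arrays of the 6 probes, 3 held an array far from the other 3 of its group by Dixon's test, where chance alone flags about 1 in 20 groups. At 4 h Mcm5 read 0.52 on replicate 3, above the 0.24 to 0.28 of the others, and at 12 h it read 0.07 on replicate 4, below their 0.40 to 0.46. Both lie on the positive side of 0 like the rest of their groups. At 2 h Uhrf1 read 1.29 on replicate 2, above the 0.93 to 0.96 of the others.

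Some probes had every array of one time above 0 and every array of another below 0, a difference between times that was not tested. For each such probe the highest such mean was set against the lowest, so the gaps are extremes picked from its course. How many of all probes do so was not counted. The mean at 2 h exceeded that at 5 days by 2.43 for Pcna probe 4818 and by 2.24 for Pcna probe 10276. The mean at 2 h exceeded that at 7 days by 1.97 for Mcm5 and by 2.40 for Uhrf1. All 4 differences rest on the turning of the Cy3 arrays.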

How the results depend on the processing

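With the Cy3 arrays not turned the sign of called differences changed for Pcna probe 4818 at 3 and 5 days (0.048 and 0.30), Pcna probe 10276 at 5 days (0.14), Mcm5 at 7 days (0.26) and Rrm2 probe 4530 at 7 days (-0.40). It also changed for Gas1 at 1 h (0.13), Gins1 and Ccna2 at 5 days (0.29 and 0.11) and Btg2 at 7 days (-0.11). Of 970 recomputed values of the 6 probes, 874 moved by less than 1 SD of the treated arrays of that probe and time. For Rrm2 probe 4477 at 3 days that SD was 1.76, so values of scattered groups could move far and still count here. In settings such as no dye effect or the replicate block all 47 values stayed within it. Signs changed for 73, 22 of them with the Cy3 arrays not turned and 17 on leaving out 1 array. Among these, only the 5 probe values above were called differences. Values not centred lowered the median of all genes from 0.04 to -0.18 at 2 h and from 0.02 to -0.24 at 7 days. In that setting untreated replicates 1 and 2, with medians of 0.745 and -0.026, were still averaged as 1 array. The constant between these copies therefore entered every difference, and its part in the calls that ended without centring was not tested.

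The main counts of replication genes called were 0 except for 2 at 5 days. Not turned, they were 1 at 12 h, 1 at 24 h, 6 at 3 days, 1 at 5 days and 3 at 7 days, where 1.45%, 0.787%, 12.8%, 2.09% and 3.76% of all genes were called. Not centred left 1 at 5 days (Gins1), where 0.837% of all genes were called. Quantile normalization gave 1 at 2 h (Mcm4) and 1 at 5 days (Gins1), where 1.77% and 1.06% were. A fit of the 2 groups alone gave 0 at 5 days, with fewer arrays, where 0% of all genes were called. Array weights gave 5, 9, 3, 3 and 1 at 1, 2, 4, 12 and 24 h and 5 at 5 days, where 4.41%, 7.99%, 4.15%, 2.82%, 2.99% and 3.79% of all genes were. Testing the treated mean against 0 gave 1 at 1 h, 5 at 2 h, 1 at 3 days, 6 at 5 days and 3 at 7 days, where 0.753%, 2.52%, 5.12%, 4.87% and 5.53% were. At least 1 value per group gave 2 at 3 days (Orc3 and Asf1a), where 0.75% of all genes were called. Rows as deposited gave 1 at 5 days (Dnmt1) and 1 at 7 days (Gins3), where 0.455% and 0.875% were. Only the arrays to 24 h, an alternative chosen after seeing the data, gave 2 at 2 h (Mcm4 and Cdk4), where 2.08% of all genes were called. Leaving out 1 array gave 0 to 3 at 1 h, 0 to 3 at 2 h, 0 to 1 at 4 h, 0 to 2 at 12 h, 0 to 1 at 24 h, 0 to 3 at 3 days, 2 to 5 at 5 days and 0 to 4 at 7 days. The causes were not tested.

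With the replicate block in place of the dye effect the counts were the same, 2 at 5 days and 0 at the other times, and the call of Gas1 at 5 days ended (adjusted p = 0.057 by limma). Deviations of arrays with the same number had a median correlation of -0.05 over 136 pairs, against -0.05 for other numbers of the same dye. No pairing by number was seen, though with so few arrays per group these medians cannot exclude it. Leaving out 5d replicate 4 moved Mcm5 at 5 days from -0.84 to -0.36, and leaving out 3d replicate 4 moved Rrm2 probe 4477 at 3 days from 0.42 to -0.35.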
